A study of Mus musculus with 12 samples.

Results

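MHC class I molecules carry peptides from inside the cell to its surface, and 10 genes that build, load, or switch on this display were followed here through palate mesenchyme cells with less Srsf3. The members were given by name, for their roles in the pathway: the heavy chains *H2-K1* and *H2-D1*, the shared light chain *B2m*, the peptide transporter genes *Tap1* and *Tap2*, the transporter-bound chaperone *Tapbp* (tapasin), the immunoproteasome subunits *Psmb8*, *Psmb9*, and *Psmb10*, and the transactivator *Nlrc5*. All 10 were among the 51490 genes of the deposited table and among the 15037 genes with enough counts to be tested. The cells were iMEPM cells, an immortalized line of mouse embryonic palatal mesenchyme from a male Cdkn2a-/- embryo, a deletion that every group shared. They carried a stably integrated lentiviral shRNA with a GFP and puromycin cassette, which was either a scramble sequence (scramble) or a sequence against the 3' UTR of *Srsf3* (shSrsf3), an RNA-binding splicing factor. Each shRNA was represented by 1 selected, sorted, and expanded line used at passages 9 to 20, so that the effect of the shRNA and of the line cannot be told apart. Both lines were serum starved. PDGF-AA, a ligand of PDGFRα, was then added at 10 ng/mL to some cultures (+PDGF-AA), 1 hr before harvest, and withheld from the others (-PDGF-AA). This gave 4 groups with 3 biological replicates each, from which polyA RNA was sequenced.

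In class I presentation, the proteasome cuts cytosolic proteins into peptides, and the Tap1-Tap2 transporter moves the peptides into the endoplasmic reticulum. There, tapasin holds newly made heavy chain and B2m dimers next to the transporter until a peptide binds. Interferons raise most of these genes together through factors such as Irf1 and Nlrc5, and they also replace the constitutive catalytic proteasome subunits by Psmb8, Psmb9, and Psmb10. Embryonic and mesenchymal cells outside inflammation usually express the pathway at a modest level.

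The total count per sample was between 30958870 and 76123207. *Srsf3* itself was measured at 207, 199, and 212 CPM (the count of a gene scaled to a common library size) in the scramble and at 162, 164, and 161 CPM in the shSrsf3 replicates without ligand (log2 fold change -0.34 ± 0.038 (SE), edgeR adjusted p = 7.95e-06), and the difference with ligand was similar in size (log2 fold change -0.43 ± 0.038 (SE), edgeR adjusted p = 9.54e-07). These values are for RNA, and the study reported a larger decrease of Srsf3 protein in the shSrsf3 line by western blot. The 10 palate mesenchyme markers added up to between 40283 and 42095 CPM in scramble and between 35720 and 38605 CPM in shSrsf3 samples. Of these markers, 5 were lower and 1 was higher past the threshold without ligand, and 4 were lower and 1 was higher with ligand. In either direction, 45.9% of all tested genes passed without and 41.0% with ligand, so the marker counts were near these shares. The 10 leukocyte markers, from cells with strong class I expression, summed to 2.01 to 2.87 CPM, with ranges that overlapped between all 4 groups, and *Cd3e*, *Adgre1*, and *Cd52* had no count in any sample. Endothelial markers (5 genes, mostly *Tek*) summed to 30.6 to 34.6 CPM in scramble and 19.2 to 22.96 CPM in shSrsf3 samples, although of the 4 tested only *Tek* was lower past the threshold, and *Cdh5* and *Kdr* were higher, in both Srsf3 comparisons. These 4 genes are too few to set against the shares of all tested genes. Epithelial markers (6 genes, mostly *Cdh1*) summed to 2.18 to 3.33 CPM in scramble and 0.591 to 1.09 CPM in shSrsf3 samples. The mesenchyme, endothelial, and epithelial sums moved with the shRNA, and their part in the results was not tested.

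The members differed widely in level. Per kb of the canonical transcript, the mean over all 12 samples was 310.4 CPM for *B2m*, 39.9 CPM for both *H2-D1* and *Tapbp*, and 26.4 CPM for *H2-K1*. Below these came *Psmb10* with 8.77, *Tap2* with 4.44, *Tap1* with 2.92, and *Psmb8* with 1.88 CPM per kb. *Psmb9* (0.275 CPM per kb) and *Nlrc5* (0.0884 CPM per kb) were hardly expressed, with 6 to 35 and 13 to 58 counts per sample. *H2-D1* and *Tapbp* could not be ordered, since their values over the 12 samples overlapped (36.2 to 44.6 and 33.8 to 45.6 CPM per kb).

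Of the members, 6 lie in a single stretch of the MHC on mouse chromosome 17, and *Tapbp* lies just outside it (GRCm39, GENCODE M39). *H2-K1* (ENSMUSG00000061232.18) is at chr17:34214987-34219321 on the minus strand and *H2-D1* (ENSMUSG00000073411.14) at chr17:35481691-35486475 on the plus strand. Between them, *Psmb9* (chr17:34400960-34406738, minus strand), *Tap1* (chr17:34405996-34416199, plus strand), *Psmb8* (chr17:34416690-34420428, plus strand), and *Tap2* (chr17:34422501-34435829, plus strand) follow each other directly. *Tapbp* is at chr17:34134873-34148267 on the plus strand. The other members are elsewhere, with *B2m* at chr2:121977957-121983594 on the plus strand, *Psmb10* at chr8:106662362-106665077 on the minus strand, and *Nlrc5* at chr8:95160984-95253900 on the plus strand.

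The promoters of the genes for the class I dimer itself hold a shared element, which is shown because Nlrc5 and the RFX, CREB/ATF, and NF-Y factors are known to act through it. RefSeq promoter windows (250 bases before to 50 after the start, GRCm38.p6) were found for 8 of the 10 members, and the printed stretches were placed on GRCm39 by exact match. The letters searched, on both strands, were TGACG (the core of the X2 box) followed after 15 to 25 bases by ATTGG (the Y box), and capitals mark these letters in the following stretches, written 5' to 3' along the gene.
*H2-K1* (chr17:34219333-34219362, minus strand): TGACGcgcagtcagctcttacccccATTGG
*H2-D1* (chr17:35481969-35481998, plus strand): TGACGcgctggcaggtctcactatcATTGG
*B2m* (chr2:121978090-121978119, plus strand): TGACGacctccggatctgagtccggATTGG
In all 3 the gap between both boxes was 20 bases, and such a pair was present in 0.435% of all 32851 windows. The same pair stood before the heavy chain gene *H2-M3*, which is no member. The element began 41, 101, and 78 bases before the RefSeq start of *H2-K1*, *H2-D1*, and *B2m*. In windows set on the canonical starts of GENCODE M39, the pair was found for *H2-K1* only among the members, which differs from the RefSeq windows.

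These 3 promoters also held the core AANNGAAA of an interferon response element, which was present in 23.9% of windows. On the coding strand it reads in reverse in both heavy chain genes, and capitals mark its fixed letters.
*H2-K1* (chr17:34219395-34219420, minus strand): tctccacagTTTCacTTctgcaccta
*H2-D1* (chr17:35481911-35481936, plus strand): tctcctcagTTTCacTTctgcaccta
*B2m* (chr2:121978022-121978047, plus strand): agaacatgaAActGAAAatgggaaag
The kappa B letters GGGNNTTCCC (1.75% of windows) occurred in the windows of *H2-K1* and *H2-D1*. None of these letters occurred in the windows of *Tap1*, *Tapbp*, *Psmb8*, *Psmb9*, and *Psmb10*, which says only that they are not in these 300 bases. In the GENCODE windows, the interferon core was instead found for *H2-K1*, *Tap2*, *Tapbp*, and *Nlrc5* and not for *H2-D1* and *B2m*, and the kappa B letters for *H2-K1*, so that these matches depend on which start is used. The RefSeq windows of *Tap1* and *Psmb9* share 275 bases, since both genes are read outward from starts 226 bases apart. A match is a description of the sequence and not evidence that a factor binds.

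To determine which members differed between the lines, scramble and shSrsf3 samples were compared in the same ligand condition. Without ligand, 5 of the 10 members were lower in shSrsf3 samples at an edgeR adjusted p of 0.05 or less (*Psmb8*, *Tap1*, *Tap2*, *Tapbp*, and *H2-D1*) and none was higher. Of all tested genes, 45.9% passed in either direction, 23.7% lower and 22.2% higher. With ligand, 6 of 10 were lower, the same 5 and *Psmb9*, and none was higher, where 41.0% of all tested genes passed, 20.7% lower and 20.3% higher. At a fold change of at least 2, *Psmb8* alone passed without ligand, and *Psmb8* and *Psmb9* passed with ligand (5.75% and 5.42% of all tested genes). The median log2 fold change of the members was -0.17 without and -0.19 with ligand, against -0.016 and -0.010 over all tested genes. The 10 palate mesenchyme markers had medians of -0.17 and -0.13, so a shift of about this size was not particular to the members. The values of the scramble and shSrsf3 groups did not overlap for 6 members in each comparison, against 53.3% and 52.6% of all tested genes. In RNA from whole cultures, fewer cells that express a gene and less RNA per cell cannot be told apart.

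**Figure D1:**
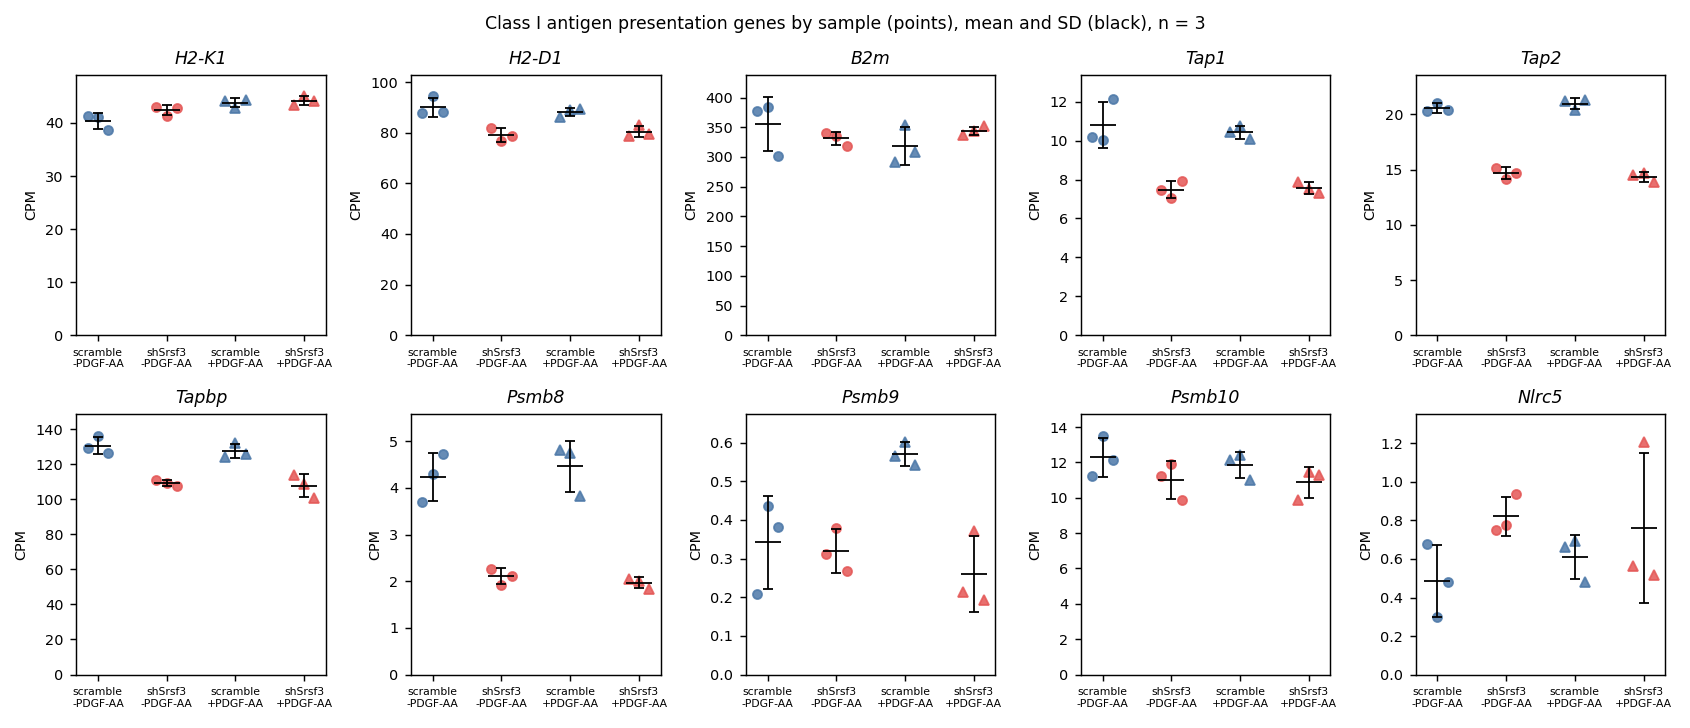
CPM of each of the 10 members in each sample (points; circles without and triangles with PDGF-AA; blue scramble, red shSrsf3), with the mean and SD of each group (n = 3) in black and all vertical axes starting at 0. The shSrsf3 samples lie below all scramble samples for *Psmb8*, *Tap1*, *Tap2*, *Tapbp*, and *H2-D1*, while *H2-K1*, *B2m*, and *Psmb10* lie at similar heights in the groups.

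The greatest difference among the members other than the hardly expressed *Psmb9* and *Nlrc5* was in *Psmb8*, the inducible subunit that replaces the chymotrypsin-like subunit Psmb5. Its levels without ligand were 3.69, 4.30, and 4.72 CPM in scramble and 2.27, 1.93, and 2.12 CPM in shSrsf3 samples. With ligand they were 4.82, 4.75, and 3.83 CPM in scramble and 2.06, 2.01, and 1.83 CPM in shSrsf3 samples. All shSrsf3 values were thus lower than all scramble values. The mean fell from 4.24 ± 0.520 to 2.11 ± 0.169 CPM without ligand (SD, n = 3; log2 fold change -1.01 ± 0.13 (SE), edgeR adjusted p = 2.52e-05). With ligand, the difference was a log2 fold change -1.18 ± 0.13 (SE), edgeR adjusted p = 1.12e-05.

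*Psmb9*, the inducible counterpart of Psmb6, was near the limit of what these libraries can measure. Without ligand, 8, 19, and 23 counts were assigned to it in scramble and 24, 25, and 10 counts in shSrsf3 replicates, which corresponded to overlapping values of 0.208, 0.437, and 0.381 and 0.311, 0.380, and 0.268 CPM (log2 fold change -0.098 ± 0.31 (SE), edgeR adjusted p = 0.826). With ligand, it had 0.565, 0.603, and 0.541 CPM in scramble and 0.214, 0.372, and 0.193 CPM in shSrsf3 samples, without overlap (log2 fold change -1.13 ± 0.33 (SE), edgeR adjusted p = 0.0137). This call was lost when shSrsf3 +PDGF-AA replicate 1 or replicate 3 was left out (edgeR adjusted p = 0.0677 and 0.0629), and a different Srsf3 effect with and without ligand was not detectable (interaction log2 fold change -1.03 ± 0.46 (SE), edgeR adjusted p = 0.874). *Psmb9* and *Tap1* overlap at their starts on opposite strands. The libraries were stranded, and whether the quantification used the strand is not given in the sources used here.

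The third inducible subunit gene, *Psmb10*, whose product replaces Psmb7, is encoded outside the MHC. It was measured at 11.2, 13.5, and 12.1 CPM in scramble and 11.3, 11.9, and 9.85 CPM in shSrsf3 samples without ligand, with overlapping groups (log2 fold change -0.15 ± 0.086 (SE), edgeR adjusted p = 0.168). The groups overlapped with ligand as well, at 12.1, 12.4, and 10.99 and 9.89, 11.5, and 11.3 CPM (log2 fold change -0.13 ± 0.089 (SE), edgeR adjusted p = 0.289).

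Each inducible subunit was then expressed as a share of its catalytic pair, from CPM per kb. *Psmb8* made up 7.23% ± 0.50 of the *Psmb8* and *Psmb5* pair in scramble and 3.64% ± 0.284 in shSrsf3 samples without ligand (SD, n = 3). With ligand, its shares were 7.33% ± 0.736 and 3.46% ± 0.190. *Psmb5* itself had 31.9 ± 3.16 CPM per kb in scramble and 32.7 ± 0.129 in shSrsf3 samples without ligand, which did not pass the test. The share of *Psmb10* in its pair with *Psmb7* stayed between 8.41% and 10.08% in all samples. *Psmb9* was between 0.110% and 0.327% of its pair with *Psmb6* in all samples. The constitutive subunit genes *Psmb5*, *Psmb6*, and *Psmb7* did not pass the test in either Srsf3 comparison (0 of 3, with 2 without and 0 with ligand at an unadjusted p under 0.05, where 52.8% and 48.6% of all tested genes were). *Psmb6*, the most expressed of the 3, came close without ligand (log2 fold change -0.16 ± 0.064 (SE), edgeR adjusted p = 0.0524).

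**Figure D2:**
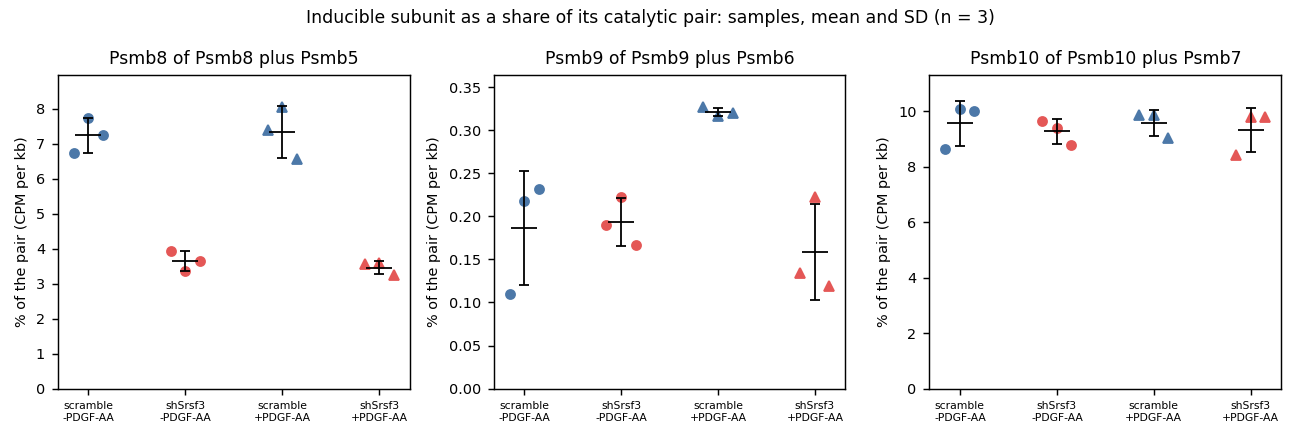
Share of the inducible subunit in each catalytic pair of the proteasome, in percent of the summed CPM per kb of the pair, for each sample (points; circles without and triangles with PDGF-AA; blue scramble, red shSrsf3), with mean and SD (n = 3). The share of *Psmb8* is between 6.57% and 8.04% in scramble and between 3.24% and 3.92% in shSrsf3 samples, whereas the *Psmb10* shares of the groups overlap.

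Both transporter genes were lower in shSrsf3 samples. *Tap1* had 10.2, 10.0, and 12.1 CPM in scramble and 7.47, 7.05, and 7.92 CPM in shSrsf3 samples without ligand, and the groups did not overlap (log2 fold change -0.54 ± 0.078 (SE), edgeR adjusted p = 8.36e-05). Upon ligand treatment the levels were 10.5, 10.8, and 10.08 CPM and 7.88, 7.50, and 7.31 CPM (log2 fold change -0.46 ± 0.081 (SE), edgeR adjusted p = 4.24e-04). *Tap2*, which encodes the other chain of the transporter, had 20.3, 21.1, and 20.4 CPM in scramble and 15.2, 14.1, and 14.7 CPM in shSrsf3 samples without ligand (log2 fold change -0.49 ± 0.044 (SE), edgeR adjusted p = 1.16e-06). With ligand it had 21.2, 20.4, and 21.3 CPM and 14.5, 14.7, and 13.8 CPM (log2 fold change -0.55 ± 0.046 (SE), edgeR adjusted p = 5.51e-07). The replicates of *Tap2* were close together in each group, and for both genes the shSrsf3 values were all lower than the scramble values. Read in the sense direction, the transcripts of *Tap1* and *Tap2* shared 0.718% and 1.25% of their 31-base sequences with other genes, so that few same-strand reads could have been split. Opposite strands were not compared, so this does not cover the overlap of *Tap1* with *Psmb9*.

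*Tapbp*, which tethers empty class I molecules to the transporter, was lower by a smaller amount. Its values without ligand were 129, 136, and 127 CPM in scramble and 111, 109, and 108 CPM in shSrsf3 samples (log2 fold change -0.25 ± 0.046 (SE), edgeR adjusted p = 5.53e-04). With ligand, 124, 132, and 126 CPM and 114, 109, and 101 CPM were measured, again without overlap (log2 fold change -0.24 ± 0.046 (SE), edgeR adjusted p = 8.99e-04). Of its 31-base sequences, 19.3% were shared with other genes, mostly with *Zbtb22*, which overlaps it on the same strand, so that its level is less certain.

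The heavy chain genes did not move together. *H2-D1* had 87.7, 94.5, and 88.1 CPM in scramble and 81.9, 76.6, and 78.8 CPM in shSrsf3 samples without ligand, with all shSrsf3 samples lower (log2 fold change -0.19 ± 0.042 (SE), edgeR adjusted p = 0.00251). The values with ligand were 86.2, 89.1, and 89.4 CPM and 78.9, 83.0, and 79.4 CPM (log2 fold change -0.13 ± 0.042 (SE), edgeR adjusted p = 0.0213). This difference lost its call when any of 4 libraries was left out, namely scramble +PDGF-AA replicates 2 and 3 and shSrsf3 +PDGF-AA replicates 1 and 3 (edgeR adjusted p of 0.0553 to 0.0774). *H2-K1* had 41.3, 41.1, and 38.6 CPM in scramble and 43.1, 41.3, and 42.8 CPM in shSrsf3 samples without ligand, with overlapping groups (log2 fold change 0.072 ± 0.039 (SE), edgeR adjusted p = 0.146). With ligand the groups overlapped at 44.2, 42.8, and 44.3 and 43.4, 45.2, and 44.1 CPM (log2 fold change 0.014 ± 0.039 (SE), edgeR adjusted p = 0.811). Class I heavy chain genes are near-copies of each other: 26.6% of the 31-base sequences of *H2-K1* and 28.7% of those of *H2-D1* occurred in other genes, and 577 such sequences were common to both. How reads were divided between both genes is therefore uncertain. The counts of 20 heavy chain genes were also summed to 1 feature. This sum was lower in shSrsf3 samples without (log2 fold change -0.21 ± 0.036 (SE), edgeR adjusted p = 3.77e-04) and with ligand (-0.20 ± 0.036 (SE), edgeR adjusted p = 5.06e-04). It includes 18 heavy chain genes that are no members. These 18 added up to 62.8 to 64.7 CPM in scramble and 46.0 to 47.6 CPM in shSrsf3 samples without ligand. With ligand they added up to 60.8 to 66.7 CPM and 41.6 to 47.7 CPM. A sum of *H2-K1* and *H2-D1* alone was not tested, so the lower sum cannot be assigned to them.

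*B2m*, the light chain of all class I molecules, was the most abundant member, and its values were spread widely in scramble cells. Without ligand it was measured at 378, 385, and 302 CPM in scramble and 339.9, 336, and 319 CPM in shSrsf3 samples (log2 fold change -0.097 ± 0.082 (SE), edgeR adjusted p = 0.358). With ligand it was at 292, 354, and 308 and 337, 343, and 351 CPM (log2 fold change 0.11 ± 0.082 (SE), edgeR adjusted p = 0.302). In both comparisons the groups overlapped. The 3 scramble libraries with the highest values, replicates 1 and 2 without and replicate 2 with ligand, are also those for which the study's methods list the lowest mapping rates. Without these 3 libraries, *B2m* was higher in shSrsf3 samples without ligand (log2 fold change 0.13, edgeR adjusted p = 0.0499, with 1 scramble sample left, which was assumed to vary like the other groups) and with ligand (0.19, edgeR adjusted p = 0.00117). Leaving out scramble -PDGF-AA replicate 3 alone gave the opposite direction without ligand (-0.19, edgeR adjusted p = 0.0195). No direction can be given for *B2m*. In the fit without the 3 libraries, the 6 members that passed with ligand remained lower and past the threshold, with 2 scramble samples left. The 5 that passed without ligand were also lower, but with its 1 scramble sample that fit is a weak check.

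*Nlrc5*, which switches on the class I promoters, had few reads. Its values without ligand were 0.675, 0.299, and 0.481 CPM in scramble and 0.751, 0.774, and 0.940 CPM in shSrsf3 samples. These values did not overlap, with the shSrsf3 samples above, but did not pass the test (log2 fold change 0.75 ± 0.34 (SE), edgeR adjusted p = 0.0876). With ligand, 0.664, 0.691, and 0.479 CPM and 0.561, 1.21, and 0.515 CPM were measured, with shSrsf3 replicate 2 above all others (log2 fold change 0.31 ± 0.34 (SE), edgeR adjusted p = 0.504). It had 13 to 58 counts per sample. Without scramble -PDGF-AA replicate 1, the difference without ligand passed the threshold (1.03, edgeR adjusted p = 0.0468).

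**Figure D3:**
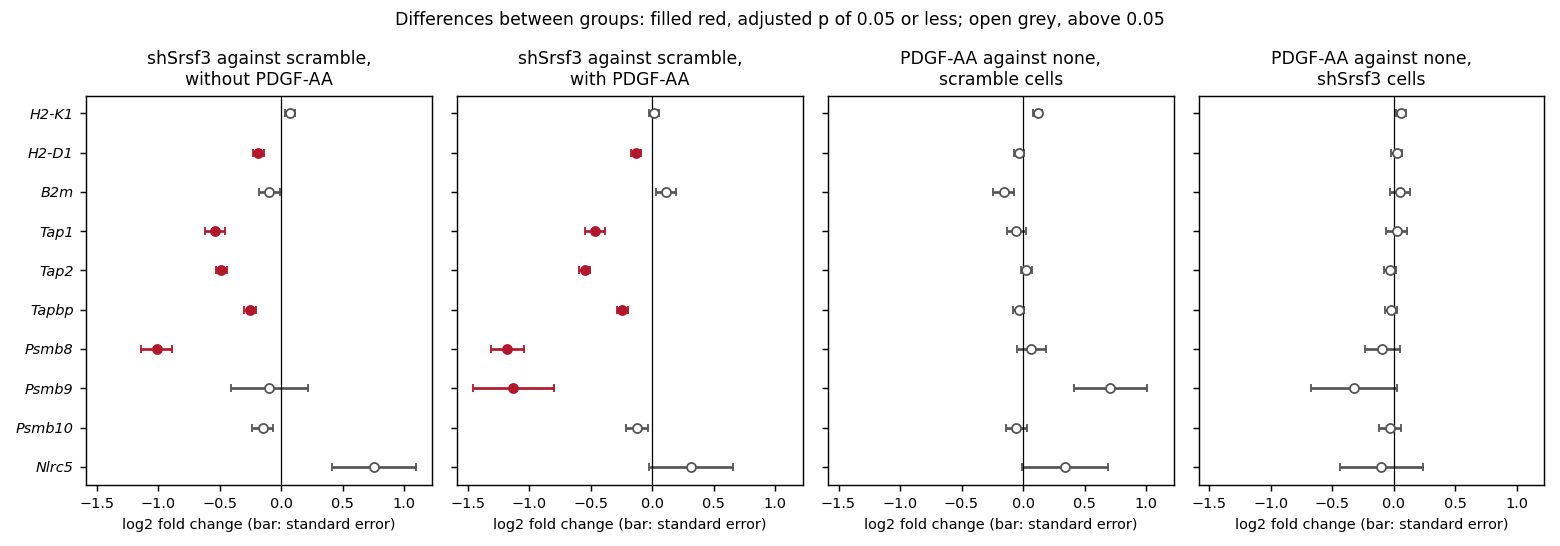
Log2 fold change (points) and standard error (bars) of the 10 members in the 4 comparisons between groups of 3 samples, on 1 scale; filled red points have an adjusted p of 0.05 or less and open grey points a higher one. The filled points are all to the left of 0 in both comparisons of shSrsf3 with scramble (5 and 6 members), and there is none in the PDGF-AA comparisons.

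Stimulation for 1 hr was then examined in each line. In scramble cells, 0 of 10 members passed the edgeR test upon PDGF-AA treatment, against 4.04% of all tested genes, and 0 passed with DESeq2. At an unadjusted p under 0.05 there were 2 members, against 17.6% of all tested genes. *H2-K1* was one of these (log2 fold change 0.12 ± 0.039 (SE), edgeR adjusted p = 0.114), and its 3 stimulated samples were above the 3 unstimulated ones. The other was *Psmb9* (log2 fold change 0.71 ± 0.30 (SE), edgeR adjusted p = 0.232), also without overlap, which was seen for 18.8% of all tested genes. In shSrsf3 cells, 0 of 10 passed with edgeR and with DESeq2, where 0.565% of all tested genes passed with edgeR. At an unadjusted p under 0.05 there were 0 members in shSrsf3 cells, against 9.44% of all tested genes. The log2 fold changes of the 8 members other than *Psmb9* and *Nlrc5* ranged from -0.16 (*B2m*) to 0.12 (*H2-K1*) in scramble cells. In shSrsf3 cells the same 8 members ranged from -0.096 (*Psmb8*) to 0.061 (*H2-K1*). The 2 PDGF-AA comparisons have no samples in common with each other but share all of them with the Srsf3 comparisons. Whether the Srsf3 effect depended on ligand was tested by the interaction, which 0 of 10 members passed with edgeR and with DESeq2 (0.0133% of all tested genes with edgeR). Of the 10, only *Psmb9* had an unadjusted p under 0.05 in this test, against 5.54% of all tested genes.

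The other class I heavy chain genes were then considered. Of the 22 on the list, 18 were in the table and 7 were tested, of which 3 were lower without ligand and 4 with ligand, and none was higher, against 23.7% and 20.7% lower among all tested genes. *H2-T23* encodes Qa-1, which presents peptides to inhibitory receptors of NK cells, and had 28.7, 27.7, and 26.7 CPM in scramble and 14.4, 13.2, and 13.6 CPM in shSrsf3 samples without ligand (log2 fold change -1.01 ± 0.076 (SE), edgeR adjusted p = 1.77e-07). Its difference with ligand was of the same size (log2 fold change -1.02 ± 0.079 (SE), edgeR adjusted p = 2.69e-07). Of the 31-base sequences of *H2-T23*, 23.9% were shared with other genes. *H2-M3*, which presents N-formylated peptides, was also lower without (log2 fold change -0.92 ± 0.16 (SE), edgeR adjusted p = 3.88e-04) and with ligand (log2 fold change -0.86 ± 0.17 (SE), edgeR adjusted p = 9.98e-04). *H2-T24* passed with ligand (log2 fold change -0.74 ± 0.24 (SE), edgeR adjusted p = 0.0215) and did not pass without ligand (log2 fold change -0.46 ± 0.23 (SE), edgeR adjusted p = 0.117). The third gene that was lower without ligand was *H2-Q4* (log2 fold change -0.46 ± 0.15 (SE), edgeR adjusted p = 0.0246), named after its values were seen, of whose 31-base sequences 42.8% were shared. *H2-T22*, the most expressed of this list, likewise passed with ligand and not without (log2 fold change -0.058 ± 0.051 (SE), edgeR adjusted p = 0.384 without and log2 fold change -0.14 ± 0.052 (SE), edgeR adjusted p = 0.0414 with ligand), and 46.9% of its 31-base sequences were shared with other genes. Among the 4 most expressed heavy chain genes, taken per kb, *H2-K1* made up 24.3% ± 0.696 in scramble and 29.6% ± 0.319 in shSrsf3 samples without ligand (SD, n = 3), whereas *H2-T23* made up 18.4% ± 0.661 and 10.6% ± 0.205. *H2-D1* was the largest part, with 41.5% ± 1.04 and 42.3% ± 0.273. A share also moves when the other genes change. The levels themselves were 24.9 and 26.2 CPM per kb for *H2-K1*, 42.6 and 37.4 for *H2-D1*, and 18.8 and 9.33 for *H2-T23*, in scramble and shSrsf3 samples without ligand.

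Class I-like proteins also pair with B2m, and 4 of the 5 on the list were tested and all 4 passed in both comparisons, 3 lower and 1 higher. In either direction, 45.9% and 41.0% of all tested genes passed without and with ligand, and 4 genes are too few to set against these shares. *Fcgrt*, the neonatal Fc receptor and the most expressed of them, was lower without (log2 fold change -0.27 ± 0.042 (SE), edgeR adjusted p = 1.88e-04) and with ligand (log2 fold change -0.29 ± 0.043 (SE), edgeR adjusted p = 1.06e-04). *Cd1d1*, which presents lipids, was lower as well (log2 fold change -0.42 ± 0.11 (SE), edgeR adjusted p = 0.00627 and log2 fold change -0.57 ± 0.11 (SE), edgeR adjusted p = 0.00131), as did the iron regulator *Hfe* (log2 fold change -0.42 ± 0.11 (SE), edgeR adjusted p = 0.00500 and log2 fold change -0.43 ± 0.11 (SE), edgeR adjusted p = 0.00570). The gene that was higher was *Mr1*, which presents vitamin B metabolites (log2 fold change 0.23 ± 0.045 (SE), edgeR adjusted p = 0.00113 and log2 fold change 0.29 ± 0.046 (SE), edgeR adjusted p = 2.15e-04), named after its values were seen.

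Of 11 chaperones and enzymes that fold or trim class I cargo in the endoplasmic reticulum, 3 were lower in each comparison, a share close to the 23.7% and 20.7% lower among all tested genes, and none was higher, with a list median of -0.036 and -0.026. These were the chaperones *Calr* (log2 fold change -0.37 ± 0.073 (SE), edgeR adjusted p = 9.51e-04 without ligand and -0.24, edgeR adjusted p = 0.0174 with ligand), *Pdia6* (log2 fold change -0.22 ± 0.042 (SE), edgeR adjusted p = 7.36e-04 and -0.21, edgeR adjusted p = 0.00134), and *Hspa5* (log2 fold change -0.20 ± 0.039 (SE), edgeR adjusted p = 9.50e-04 and -0.21, edgeR adjusted p = 8.08e-04). Proteasome activators open the ends of the core. Of the 4 activator genes, 2 were lower and 1 was higher in each comparison, too few to set against these shares. *Psme2*, a subunit of the interferon-inducible PA28 cap, was lower (log2 fold change -0.23 ± 0.059 (SE), edgeR adjusted p = 0.00685 and -0.22, edgeR adjusted p = 0.0104), as was *Psme3*, which forms a nuclear cap (log2 fold change -0.18 ± 0.049 (SE), edgeR adjusted p = 0.00776 and -0.16, edgeR adjusted p = 0.0209). *Psme4* was higher (log2 fold change 0.13 ± 0.049 (SE), edgeR adjusted p = 0.0452 and 0.14, edgeR adjusted p = 0.0407). Of the 12 other genes of the 20S core and its assembly, 7 were lower without and 4 with ligand and none was higher, against 23.7% and 20.7% lower among all tested genes. *Psmb3* differed most among them (log2 fold change -0.40 ± 0.049 (SE), edgeR adjusted p = 1.83e-05 and -0.27, edgeR adjusted p = 6.34e-04). *Psma6* (log2 fold change -0.27 ± 0.068 (SE), edgeR adjusted p = 0.00521) and *Psmb1* (log2 fold change -0.24 ± 0.060 (SE), edgeR adjusted p = 0.00492) passed without ligand but not with ligand (edgeR adjusted p = 0.147 and 0.0758). As for *B2m*, the 3 scramble libraries of lowest mapping rate had the highest scramble values of *Calr*, *Psme3*, *Psma6*, and *Psmb1*. For *Calr* these were 1437 and 1467 CPM without and 1373 CPM with ligand, against 1173 to 1217 CPM in the other scramble samples. These libraries also had the highest scramble values of the member *Tapbp*, of *Psmb6*, and of further genes such as *Psme1*. The fit without these libraries was examined for the members only, so its effect on these lists was not tested.

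Transcription regulators that act on class I promoters were mostly lower where they passed. Without ligand, 9 of the 16 tested regulators were lower and 2 were higher, and with ligand 6 were lower and none was higher, where 23.7% and 20.7% of all tested genes were lower and 22.2% and 20.3% higher. *Irf9*, the DNA-binding subunit of the complex that type I interferon activates, was lower in both comparisons (log2 fold change -0.73 ± 0.061 (SE), edgeR adjusted p = 5.27e-07 and log2 fold change -0.71 ± 0.064 (SE), edgeR adjusted p = 1.12e-06). *Irf1*, an activator of *Tap1* and *Psmb9*, had 21.8, 20.9, and 25.7 CPM in scramble and 14.4, 13.7, and 13.6 CPM in shSrsf3 samples without ligand and was also lower (log2 fold change -0.72 ± 0.11 (SE), edgeR adjusted p = 1.42e-04 and log2 fold change -0.50 ± 0.11 (SE), edgeR adjusted p = 0.00302). *Rela*, the most expressed regulator and an NF-kappa B subunit, differed by less (log2 fold change -0.29 ± 0.064 (SE), edgeR adjusted p = 0.00240 and log2 fold change -0.20 ± 0.064 (SE), edgeR adjusted p = 0.0217). Upon stimulation, 4 of the 16 passed in scramble cells, where 4.04% of all tested genes passed. They are named here after their values were seen: the NF-kappa B subunit *Rel* was higher (log2 fold change 0.61 ± 0.059 (SE), edgeR adjusted p = 6.09e-05), and *Rfxap* (-0.34, edgeR adjusted p = 0.0226), *Rfx5* (-0.28, edgeR adjusted p = 0.0228), and *Irf2* (-0.28, edgeR adjusted p = 0.0140) were lower. In shSrsf3 cells 1 of the 16, *Rel*, passed (log2 fold change 0.38 ± 0.060 (SE), edgeR adjusted p = 0.0104), where 0.565% of all tested genes passed.

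Of 10 interferon receptor, kinase, and feedback genes, 3 were lower and 2 were higher without ligand, and 5 were lower and 2 were higher with ligand, with the same shares of all tested genes as background. *Socs3*, a feedback inhibitor of cytokine receptors, was lower (log2 fold change -0.99 ± 0.060 (SE), edgeR adjusted p = 2.51e-08 and log2 fold change -1.02 ± 0.061 (SE), edgeR adjusted p = 2.49e-08), and so was the type I receptor chain *Ifnar2* (log2 fold change -0.37 ± 0.057 (SE), edgeR adjusted p = 1.46e-04 and log2 fold change -0.24 ± 0.057 (SE), edgeR adjusted p = 0.00440). *Socs1* passed with ligand (log2 fold change -0.38 ± 0.13 (SE), edgeR adjusted p = 0.0330) and not without (-0.30, edgeR adjusted p = 0.0871), and *Jak1*, the most expressed of the list, passed in neither (log2 fold change 0.049 ± 0.034 (SE), edgeR adjusted p = 0.261 and log2 fold change 0.034 ± 0.034 (SE), edgeR adjusted p = 0.466). Both genes that were higher in each comparison, again named after their values were seen, encode the interferon gamma receptor, *Ifngr1* (0.24 and 0.18, edgeR adjusted p = 0.00205 and 0.0131) and *Ifngr2* (0.11 and 0.25, edgeR adjusted p = 0.0205 and 1.08e-04).

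Of 20 tested interferon-stimulated genes outside the class I pathway, 14 were lower and 2 were higher without ligand, and 15 were lower and none was higher with ligand, against 23.7% and 20.7% lower among all tested genes, with a list median of -0.72 and -0.86. The antiviral sensor gene *Oas1a* had the largest difference (log2 fold change -1.88 ± 0.28 (SE), edgeR adjusted p = 1.23e-04 and log2 fold change -2.66 ± 0.31 (SE), edgeR adjusted p = 1.39e-05), followed by *Oasl2* (log2 fold change -1.65 ± 0.19 (SE), edgeR adjusted p = 9.55e-06 and log2 fold change -1.93 ± 0.20 (SE), edgeR adjusted p = 4.64e-06) and by *Parp14*, which encodes a mono-ADP-ribosyltransferase (log2 fold change -1.48 ± 0.13 (SE), edgeR adjusted p = 9.62e-07 and log2 fold change -1.75 ± 0.14 (SE), edgeR adjusted p = 4.05e-07). *Ifit2*, the most expressed of the list, went the other way and was higher without ligand (log2 fold change 0.15 ± 0.050 (SE), edgeR adjusted p = 0.0224), with log2 fold change 0.13 ± 0.051 (SE), edgeR adjusted p = 0.0646 with ligand. Compared with this list, the medians of the 10 members were closer to 0, and no test of that difference was made. The MHC class II genes were largely silent, since 3 of the 10 on the list were tested and *H2-Aa*, *H2-Ab1*, and *H2-Eb1* stayed at or below 0.182 CPM in every sample. Of the tested ones, the peptide editor subunit genes *H2-DMa* (log2 fold change 0.83 ± 0.12 (SE), edgeR adjusted p = 1.05e-04 and log2 fold change 0.95 ± 0.12 (SE), edgeR adjusted p = 3.70e-05) and *H2-DMb1* (log2 fold change -0.73 ± 0.14 (SE), edgeR adjusted p = 9.34e-04 and log2 fold change -0.86 ± 0.15 (SE), edgeR adjusted p = 4.07e-04) passed in opposite directions.

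**Figure D4:**
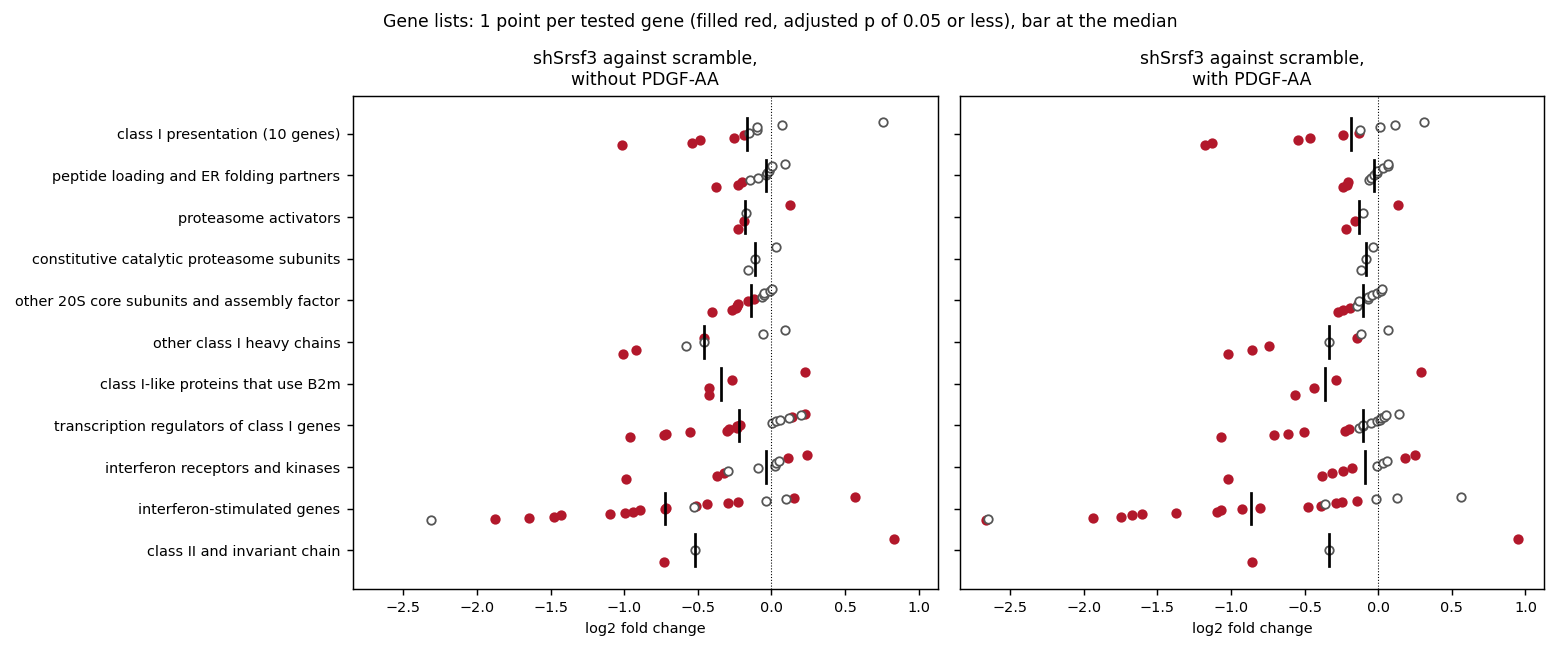
Log2 fold change of shSrsf3 against scramble samples for each tested gene (1 point each; filled red with an adjusted p of 0.05 or less, open grey above it) of the 10 class I members and of 10 related gene lists, without (left) and with (right) PDGF-AA, with a bar at each list's median. The interferon-stimulated genes spread furthest to the left, with medians of -0.72 and -0.86, and the constitutive proteasome subunits lie close to 0 without a filled point.

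The 6 members from *H2-K1* to *H2-D1* share their chromosomal stretch with many genes that are not part of antigen presentation. Of the 184 genes annotated over these 1271 kb, 56 were tested. Without the members, 50 remained, of which 16 were lower and 10 were higher without ligand (26 in all) and 8 were lower and 9 were higher with ligand (17 in all). Of all tested genes, 23.7% were lower and 22.2% higher without ligand, and 20.7% were lower and 20.3% higher with ligand. The median log2 fold change of the 50 genes was -0.040 without and -0.029 with ligand. The direct neighbors *Tap1*, *Psmb8*, and *Tap2* were all lower in both comparisons, their neighbor *Psmb9* passed in the comparison with ligand, a call that rested on shSrsf3 +PDGF-AA replicates 1 and 3, and *H2-K1* at one end of the stretch did not pass.

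**Figure D5:**
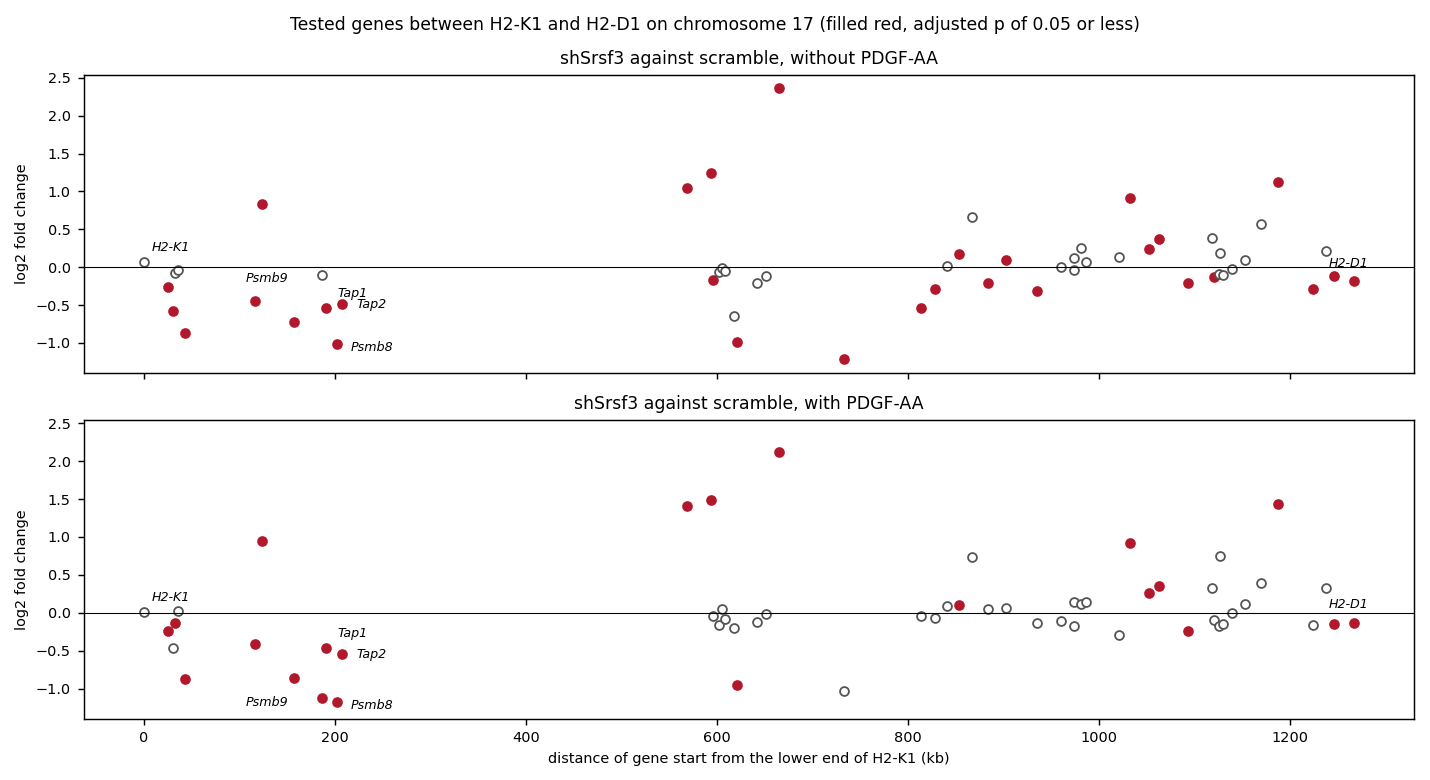
Log2 fold change of shSrsf3 against scramble samples for the tested genes between *H2-K1* and *H2-D1*, without (top) and with (bottom) PDGF-AA, against the distance of the gene's lower end from that of *H2-K1* in kb; filled red points have an adjusted p of 0.05 or less. Higher and lower genes are interspersed along the 1271 kb, and *Tap1*, *Psmb8*, and *Tap2* are adjacent points below 0 in both panels.

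Finally, genes with a pattern over the 12 samples like that of *Psmb8*, the member with the largest difference among those with a mean count of at least 50, were sought among 12261 genes by the root mean square difference of centered log2 CPM. The closest were *Postn*, *Fbln1*, *Ggt7*, *Cthrc1*, and *Podxl2*, with differences of 0.0894 to 0.104. *Postn* and *Fbln1* encode proteins of the extracellular matrix. The heavy chain gene *H2-T23* ranked 47. The other members were further away, with *Tap2* at rank 380, *Tap1* at 428, *Tapbp* at 1541, *H2-D1* at 2662, *Psmb10* at 3217, *H2-K1* at 7191, and *B2m* at 7403. The patterns share the split between both lines, so that any gene lower by a similar amount in shSrsf3 cells ranks high.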

How the data were processed

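The 12 RNA-seq samples (3 biological replicates in each of 4 groups) were grouped by their labels. The authors trimmed stranded, paired reads with BBDuk, ran Salmon (v1.4.0) against transcripts of GENCODE M26 (GRCm39), and summarized them per gene with tximport, whose version and scaling are not given in the sources used here. The deposited values are expected counts, estimated reads per gene without scaling to library size (16.3% were not whole), and per the submitters' processing notes DESeq2 (v1.32.0) was also used. Here, expected counts were rounded, filtered with filterByExpr (minimum count 10), and scaled by TMM factors. The quasi-likelihood test of edgeR 4.0.16 (R 4.3.3) was fitted over 15037 genes with 1 mean per group, and p-values were adjusted by the Benjamini-Hochberg method. The threshold was an adjusted p of at most 0.05, and the study's 2-fold minimum is given beside the counts. Adjusted p-values measure spread between replicates of 1 line per shRNA.

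Alternatives were size-factor (RLE) and upper-quartile scaling, DESeq2 1.42.0, no filter, the compared groups only, each replicate left out, the 3 libraries of lowest mapping rate left out, a replicate block, and summed heavy chains. The members and lists were chosen with earlier results of these data known, and the promoter motifs after the promoters were read. Of each related list, up to 3 genes with the largest log2 fold change past the threshold in either Srsf3 comparison and the one with the highest CPM were named; the exceptions are marked, and 1 gene of the regulator list is not reported here. Positions and 31-base sequences (compared in the sense direction only) came from GENCODE M39 (GRCm39), with canonical transcript lengths. The test was checked on simulated data. Depth was 30958870 to 76123207 counts per sample, which leaves genes with few counts imprecise.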

Additional observations from a re-analysis of the deposited data

How the results depend on the processing

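The count of members past the threshold stayed at 5 without and 6 with ligand under RLE and upper-quartile scaling, DESeq2, no filter, a fit of the compared groups only, and the replicate block. Without the 3 libraries of lowest mapping rate, 7 passed with ligand, the same 6 that were lower and *B2m*, which was higher. No count is given for that fit without ligand, where 1 scramble sample was left. With a minimum fold change of 2 the count was 1 without and 2 with ligand. Without ligand, leaving out scramble -PDGF-AA replicate 3 added *B2m*, which was lower, and leaving out replicate 1 added *Nlrc5*, which was higher. When each replicate was left out in turn, the count was 5 to 6 without and 4 to 6 with ligand. For the PDGF-AA comparisons it stayed at 0 except in scramble cells, where it was 1 without a low-count filter (*B2m*, -0.15, edgeR adjusted p = 0.0236) and 0 to 1 when each replicate was left out (*B2m* without scramble -PDGF-AA replicate 3, -0.25, edgeR adjusted p = 0.0215). The interaction count was 0 in every fit that was run. A change of direction that involved a call was seen for *B2m* without ligand (0.13 without the 3 libraries, with 1 scramble sample left), and its cause was not tested. The sum of 20 heavy chain genes, a different feature from *H2-K1* alone (0.072 and 0.014), was -0.21 and -0.20 without and with ligand, since the other chains enter it. The replicate numbers were not used as pairs in the main fit. Between same-numbered samples, 3 of 18 correlations were over 0.1 (-0.27 to 0.40). The largest, 0.40 for replicate 2 and 0.32 for replicate 3, were between scramble samples without and with ligand. Whether these samples share a batch was not tested. The replicate block gave 5, 6, 0, 0, and 0 members. Depth limits *Psmb9* and *Nlrc5*, with 6 to 58 counts per sample, and shared sequence limits the heavy chains.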
